A study of Homo sapiens with 6 samples.

Results

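The genes of chromosome 12 with a mean of at least 250 raw counts over 6 libraries were described by arm and by 10 Mb segment. There were 646 of them among 2029 chromosome 12 rows and 38170 rows in all, with SLC6A15, an amino acid transporter, left out by the rule. The chromosome was chosen by the log2 changes of this same contrast, in which its genes were already known to be higher as a group, so their shift is a description, with no test. The genes were selected on their mean count. At the count minimum, the row just inside was U47924 (mean 251.7 counts, log2 change 0.32) and the row just outside was AC025165 (mean 242.3 counts, log2 change 0.35).

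RNA came from A549, a human lung adenocarcinoma line, in 2 groups of 3 libraries. The controls carried an empty piggyBac, a transposon vector that inserts its cargo into the genome, and the others carried piggyBac overexpressing LOC401312, a long non-coding RNA. Titles gave the groups, since in LOC401312 replicates 2 and 3 the genotype label carries another locus name. The labels do not say whether a library came from a clone or a pool, or from a culture of its own, so the spread between libraries may be technical. The STEAP1B entry, which holds LOC401312, was counted 9, 11 and 23 times in the vector libraries and 94628, 92527 and 90297 times with LOC401312.

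Library totals ranged from 60971105 to 73994619 counts. The epithelial genes KRT8, KRT18 and KRT7 were abundant, and KRT19 and CDH1 had at least 4607 counts in every library. The epithelial gene EPCAM was scarce, with 104 to 201 counts. The lung lineage genes NKX2-1, SFTPB and SFTPC had at most 25 counts in any library. Some libraries stood apart. A list of 13 trophoblast markers summed to 121 and 102 CPM (counts scaled to library size) in LOC401312 replicates 2 and 3 and to between 2.31 and 3.03 in the others. A list of 5 blood markers summed to 14.9 CPM in vector replicate 1 and to at most 0.623 elsewhere. Fibroblast markers (6 genes) summed to between 38.7 and 69.4 CPM in vector and 23.2 and 26.3 in LOC401312. For urothelial markers (9 genes) the sums ran from 11.3 to 13.6 CPM with vector and from 3.05 to 3.90 with LOC401312. The members did not move together. By raw counts COL1A1, COL1A2, KRT13, PSCA, ADIRF, CDKN2A and KRT5 were lower in every LOC401312 library, while PDGFRB was higher in each. DCN and LUM were highest in vector replicate 1 and lowest in vector replicates 2 and 3. The groups overlapped in COL3A1, UPK1A, UPK1B and UPK2. The part of these marker transcripts in the results was not tested, and the shift is given below without the libraries rich in trophoblast or blood markers.

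A human chromosome has a short arm (p) and a long arm (q) joined at the centromere. Chromosome 12 carries GAPDH and CDKN1B on its short arm, and on its long arm the type II keratin cluster, the HOXC homeobox cluster and the growth genes CDK4 and MDM2. Genes were put on 12p when they started before 36 Mb, inside the stretch around the centromere where no gene of this set starts.

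Among the genes that departed far from the rest of the chromosome, 4 with an entry in the promoter table are shown by their promoters, 250 bases before to 50 bases after the transcription start, with the antioxidant response gene TXNRD1 for comparison. SLC16A7 and PCED1B rose, and PLBD1 and GALNT9 fell. Sequences are from RefSeq (GRCh38.p14), 5′ to 3′ on the gene's strand, with matches to TATAAA, TGACNNNGC (the core of the antioxidant response element) or TGANTCA (the AP-1 site) in capitals, searched on both strands.
SLC16A7: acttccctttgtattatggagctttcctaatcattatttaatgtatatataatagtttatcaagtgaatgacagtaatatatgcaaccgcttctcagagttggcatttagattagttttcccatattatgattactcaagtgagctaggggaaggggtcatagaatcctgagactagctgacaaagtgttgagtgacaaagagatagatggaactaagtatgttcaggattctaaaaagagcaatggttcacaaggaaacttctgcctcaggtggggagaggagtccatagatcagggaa
PCED1B: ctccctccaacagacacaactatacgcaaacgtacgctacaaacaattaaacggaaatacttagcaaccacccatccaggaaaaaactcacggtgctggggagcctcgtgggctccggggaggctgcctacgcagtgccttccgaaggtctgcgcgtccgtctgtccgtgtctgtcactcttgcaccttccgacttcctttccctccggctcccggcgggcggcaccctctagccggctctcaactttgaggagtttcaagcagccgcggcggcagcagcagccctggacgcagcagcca
PLBD1: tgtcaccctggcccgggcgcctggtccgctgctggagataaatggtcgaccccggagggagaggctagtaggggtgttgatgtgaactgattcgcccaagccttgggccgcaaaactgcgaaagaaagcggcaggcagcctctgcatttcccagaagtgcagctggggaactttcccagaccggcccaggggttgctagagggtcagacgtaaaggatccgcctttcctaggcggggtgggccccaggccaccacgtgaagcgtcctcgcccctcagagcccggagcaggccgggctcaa
GALNT9: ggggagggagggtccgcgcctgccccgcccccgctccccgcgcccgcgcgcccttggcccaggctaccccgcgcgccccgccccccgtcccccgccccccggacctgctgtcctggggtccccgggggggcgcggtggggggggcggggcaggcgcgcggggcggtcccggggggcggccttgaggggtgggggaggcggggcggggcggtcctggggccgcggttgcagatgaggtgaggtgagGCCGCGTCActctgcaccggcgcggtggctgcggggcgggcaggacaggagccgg
TXNRD1: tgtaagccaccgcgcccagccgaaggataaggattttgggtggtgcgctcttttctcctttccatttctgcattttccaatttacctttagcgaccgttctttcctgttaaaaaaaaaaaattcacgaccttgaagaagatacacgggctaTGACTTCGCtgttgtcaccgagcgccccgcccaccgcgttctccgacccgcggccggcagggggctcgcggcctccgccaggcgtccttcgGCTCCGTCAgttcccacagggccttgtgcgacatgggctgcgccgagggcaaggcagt
The windows lie at chr12:59689120-59689419 (plus strand), chr12:47079371-47079670 (plus), chr12:14567834-14568133 (minus), chr12:132329540-132329839 (minus) and chr12:104215529-104215828 (plus), in that order. The SLC16A7 window lies inside the gene's span in the deposited table and not at its first base. SLC16A7, PCED1B and PLBD1 held no match. GALNT9 held 1 and TXNRD1 held 2, all to TGACNNNGC. Of 35116 RefSeq promoters of this length, 13.3% held TGACNNNGC, 11.5% TATAAA and 7.71% TGANTCA. A match describes the letters of the window and not a bound site. GC content was 38.0% for SLC16A7 and 84.0% for GALNT9.

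Chromosome 12 genes lay higher in LOC401312 by a small amount. The median log2 change, LOC401312 over vector, was 0.117, a 1.085-fold level, with the middle 50% of genes between 0.03 and 0.215. Of the 646 genes, 525 (81.3%) had a positive change. Over 10001 genes outside chromosomes 2, 9 and 12 with the same count minimum, the median was 0.00368 and 51.2% were positive. Genes of chromosomes 2 and 9, left out of that set, had medians of -0.233 and -0.0861, so a shift was not particular to chromosome 12. The width was alike, with an interquartile range of 0.185 on chromosome 12 and 0.183 over the 10001 genes. The whole chromosome 12 distribution thus lay to the right of theirs, as the cumulative plot shows. In bulk RNA, a change in every cell and a change in the share of cells cannot be told apart.

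**Figure D1:**
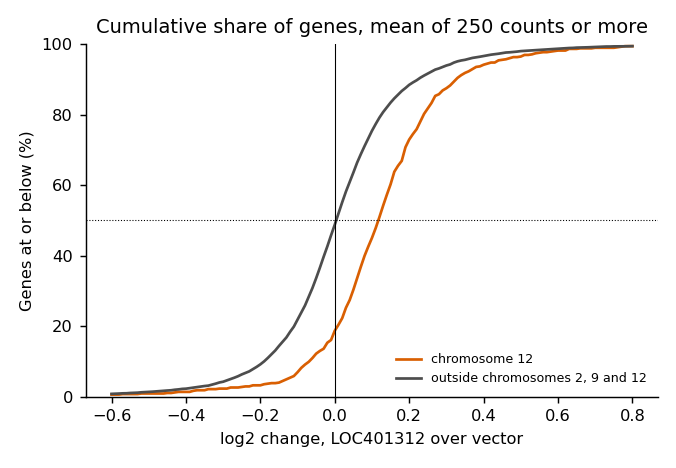
Cumulative share of genes (%) at or below each log2 change, LOC401312 over vector, for the 646 chromosome 12 genes and 10001 genes outside chromosomes 2, 9 and 12. The chromosome 12 curve is displaced to the right along nearly its whole length, with medians of 0.117 and 0.00368.

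The libraries of a group lay close together. Each gene's log2 CPM was set against its mean over the 6 libraries, and the median over the chromosome 12 genes was -0.051, -0.056 and -0.057 in vector replicates 1 to 3. It was 0.061, 0.064 and 0.060 in LOC401312. The SD was 0.003 and 0.002 (n = 3 each), and the gap between the groups 0.111, which is a description since this contrast chose the chromosome. Outside chromosomes 2, 9 and 12 the library medians ran from -0.006 to 0.007.

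The shift of 0.117 was 0.124 without vector replicate 1 and 0.119 without LOC401312 replicates 2 and 3, where the lone LOC401312 library was assumed to vary like the vector ones. With limma on the deposited FPKM values (pseudocount 0.1) it was 0.237, and the median of all features was then 0.117 in place of -0.001, which leaves 0.120 for chromosome 12 over the rest.

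By edgeR's quasi-likelihood test over the whole table, 109 chromosome 12 genes (16.9%) were called higher and 8 (1.24%) lower at an adjusted p of 0.05. Of all 19620 features tested, 4.13% were called higher and 4.58% lower, and of the 10001 genes outside chromosomes 2, 9 and 12, 5.44% and 4.13%. Nothing is read from this count, since the contrast chose the chromosome. The groups did not overlap in 286 genes with LOC401312 above and 23 with it below (44.3% and 3.56%), against 14% and 13.9% of all features and 16.2% and 13.7% of the genes outside chromosomes 2, 9 and 12. The count called higher was 134 without vector replicate 1, 71 without vector replicate 2, 49 without vector replicate 3, and 57, 46 and 55 without LOC401312 replicate 1, 2 or 3. In the same order, all features called higher were 963, 545, 421, 472, 393 and 429.

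Both arms carried the shift. The median log2 change was 0.111 over 148 genes of 12p and 0.118 over 498 genes of 12q. In single libraries the 12q median less the 12p median was 0.006, 0.014 and -0.002 in vector and -0.003, -0.009 and 0.015 in LOC401312. The arms therefore differed by no more than the libraries of a group did, and the sign of the difference varied within each group. On 12p 78.4% of genes had a positive change and on 12q 82.1%.

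Every one of the 14 segments of 10 Mb had a positive median. The lowest was 0.0851, in the segment from 50 to 60 Mb, which holds the keratin and HOXC clusters and the most genes, 136. Which segment was lowest or highest varied with the settings. Leaving out 1 library made the segment from 20 to 30 Mb or from 90 to 100 Mb the lowest in 4 of 6 fits, and that from 80 to 90 Mb the highest in 4 of 6. With all libraries the highest was 0.192, from 130 Mb to the 12q end (24 genes), followed by 0.187 from 30 to 40 Mb (18 genes), the segment across the centromere, and 0.184 from 80 to 90 Mb (15 genes, the fewest). In all 14 segments the 3 LOC401312 medians lay above the 3 vector medians, although the margin was only 0.013 from 20 to 30 Mb, where LDHB lies.

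**Figure D2:**
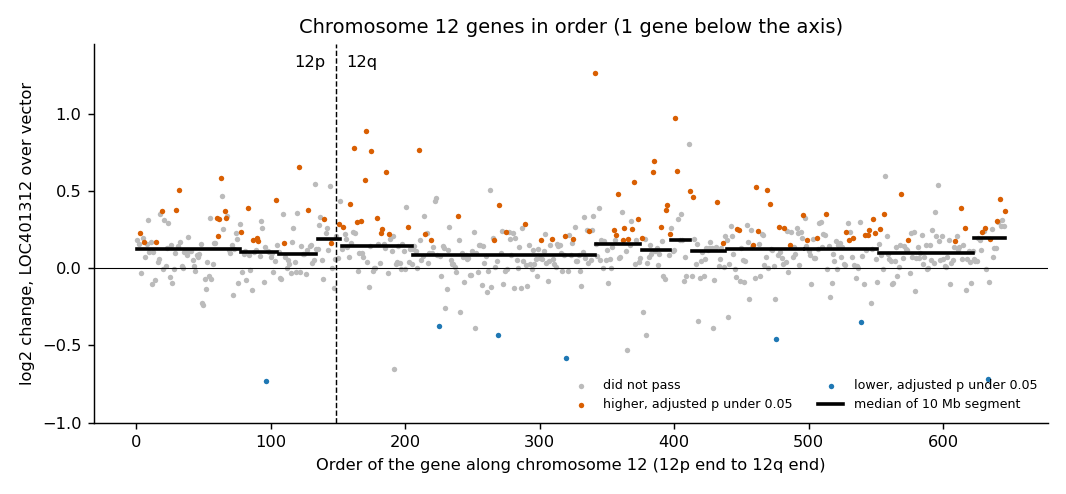
Log2 change of each chromosome 12 gene, LOC401312 over vector, in gene order from the 12p end. Points are genes, coloured by their edgeR call, black bars are medians of 10 Mb segments (0.0851 to 0.192), and the dashed line parts the arms; POC1B-GALNT4, at -3.96, lies below the axis.

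The libraries spread more in some segments than in others. From 80 to 90 Mb the vector medians were 0.030, -0.207 and -0.142, and the LOC401312 medians were 0.115, 0.144 and 0.106. Vector replicate 1, the library with blood transcripts, was the highest of the vector libraries there, from 10 to 40 Mb, from 60 to 80 Mb, from 90 to 100 Mb and from 130 Mb on. It was the lowest of them from 0 to 10 Mb, from 50 to 60 Mb and from 100 to 130 Mb, as the plot of library medians shows. From 10 to 20 Mb the vector libraries were within an SD of 0.0024. With segments of 5 Mb all 27 medians were positive, the lowest being 0.036.

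**Figure D3:**
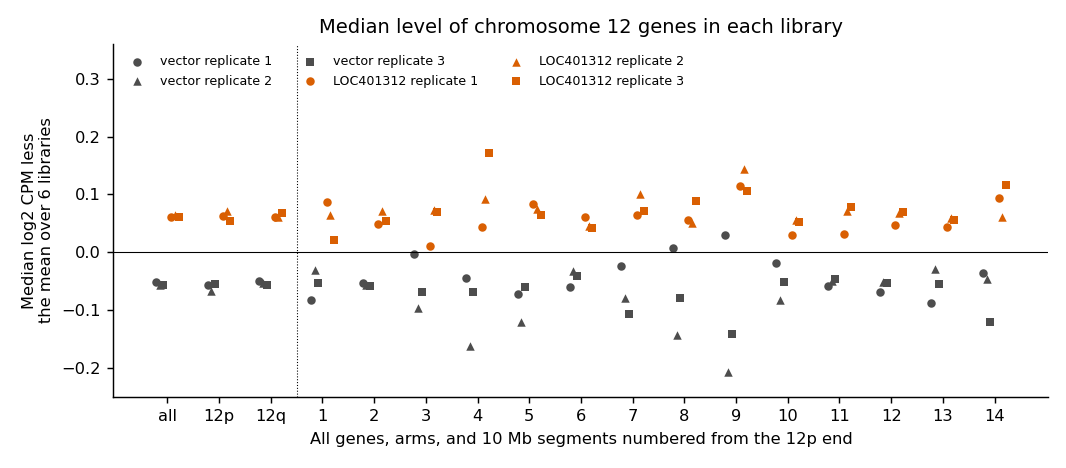
Median over genes of log2 CPM less each gene's mean over the 6 libraries, for all chromosome 12 genes, each arm and each 10 Mb segment numbered from the 12p end. Grey marks are vector and orange marks LOC401312 libraries, and every orange mark lies above every grey mark of the same column.

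The shift varied with some properties that were not used to choose the genes, and little with others. Split in 3 by genomic span, the shortest genes (0.255 to 17.5 kb) had a median of 0.0822, the middle group 0.108 and the longest (49.2 to 888 kb) 0.152. Outside chromosomes 2, 9 and 12 the medians over the same spans were -0.0208, 0.00318 and 0.028, so the excess of chromosome 12 was 0.103, 0.105 and 0.124. Medians were 0.119 on the plus and 0.113 on the minus strand. By GENCODE 29 type, which matched 645 genes, 596 protein-coding genes had a median of 0.12, 26 non-coding genes 0.0628 and 23 pseudogenes -0.0651. Pseudogenes can share reads with their parent genes, and their counts are uncertain. Of the genes, 371 overlap a feature on the other strand, whose reads could not be told apart, and their median was 0.114 against 0.12 for the rest.

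Departures from the shift were measured as a gene's log2 change less 0.117. They lay under 0.2 in size for 519 genes (80.3%), and reached 0.5 above for 12 and 0.5 below for 11. Over genes outside chromosomes 2, 9 and 12, set against their own median, 79.1% lay under 0.2. Departures of neighbours had a Spearman correlation of 0.1 across 645 adjacent pairs, which share libraries, and -0.001 at a distance of 2 genes. Among genes that overlap no other feature, 198 successive pairs, which can have other genes of the set between them, gave 0.103. With the chromosome 12 median removed from each library, edgeR called 43 genes higher and 38 lower, against 2.42% and 15.4% of all features, most of which sit below chromosome 12 by construction. All 43 were among the 109 called before, and 66 of those 109 no longer passed.

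SLC16A7 departed farthest above the shift. This gene (chr12:59596029-59789855), which encodes a plasma membrane carrier of pyruvate and lactate, had 4.34, 3.38 and 2.80 CPM in vector and 8.82, 7.49 and 8.94 in LOC401312. It rose by 1.26 (SE 0.17, adjusted p = 0.00156), a 2.40-fold level. This gene and the others farthest above or below were picked among those whose groups did not overlap once the shift was removed. ITPR2 (chr12:26335352-26833194), a calcium release channel of the endoplasmic reticulum, had 23.7, 20.3 and 22.4 CPM against 34.2, 33.6 and 36.7. It rose by 0.65 (SE 0.07, adjusted p = 0.00062) and was the only gene of 12p among the 10 farthest above. The vitamin D receptor VDR (chr12:47841537-47943048) stood at 10.7, 11.5 and 11.5 CPM in vector and 17.9, 20.6 and 18.4 in LOC401312. Its rise was 0.76 (SE 0.09, adjusted p = 0.0007).

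LIMA1 (chr12:50175788-50283506), which binds and bundles actin filaments, had 26.5, 23.5 and 24.1 CPM in vector and 40.0, 42.8 and 42.9 in LOC401312, a rise of 0.76 (SE 0.07, adjusted p = 0.000114). PCED1B (chr12:47079603-47236662) had 49.9985, 58.2 and 56.3 CPM against 102, 100.2 and 103, a rise of 0.89 (SE 0.06, adjusted p = 2.57e-05). GLIPR1 (chr12:75480753-75503863), of the CAP protein family, went from 52.6, 46.8 and 49.0 CPM to 78.5, 83.2 and 78.6, a rise of 0.70 (SE 0.05, adjusted p = 7.11e-05). In all 3 genes, groups that did not overlap were a condition of the choice. PCED1B and GLIPR1 overlap features on the opposite strand, whose reads could not be told apart from theirs.

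The homeobox factor ALX1 (chr12:85280220-85301784) stood at 5.16, 5.4 and 5.45 CPM in vector and 9.65, 10.2 and 11.4 in LOC401312, a rise of 0.97 (SE 0.11, adjusted p = 0.000605). The next gene of the set, RASSF9 (chr12:85800703-85836409), had 15.1, 10.9 and 10.9 against 19.3, 18.7 and 19.0 CPM, a rise of 0.63 (SE 0.12, adjusted p = 0.0117) whose call was lost without vector replicate 3 (adjusted p = 0.0622). TMEM117 (chr12:43835967-44389762) had 2.77, 3.08 and 3.30 CPM against 6.08, 4.91 and 4.70, a rise of 0.78 (SE 0.16, adjusted p = 0.0145). Its call was lost without LOC401312 replicate 1, where the rise was 0.66 (adjusted p = 0.0725). The last of the 10, GALNT4, did not pass (log2 change 0.80, SE 0.40, adjusted p = 0.279). Its vector replicate 2 held 3.70 CPM where the others held 15.7 to 22.2. It shares exons with the readthrough entry POC1B-GALNT4, so both counts are uncertain.

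**Figure D4:**
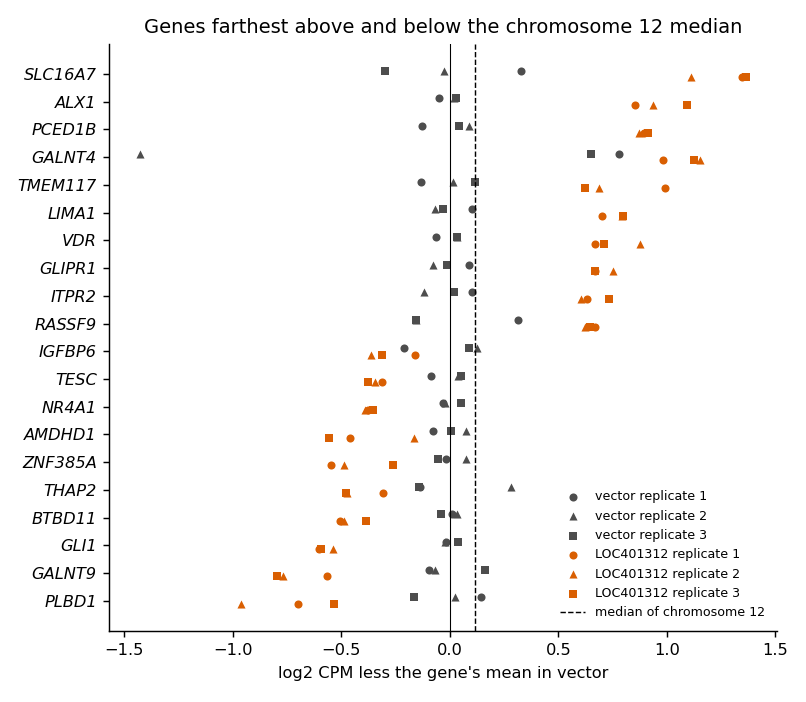
Log2 CPM of each library less the gene's vector mean, for the 10 genes farthest above and the 10 farthest below the chromosome 12 median whose groups do not overlap once each library's chromosome 12 median is removed. Grey marks are vector libraries, orange marks LOC401312 libraries, and the dashed line is the chromosome 12 median of 0.117; GALNT4 is the gene where vector replicate 2 falls far below the other libraries.

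Below the shift lay genes of several functions, and 7 of the 10 named were called lower. GLI1 (chr12:57459785-57472268), a transcription factor of Hedgehog signalling, had 9.25, 9.23 and 9.63 CPM in vector and 6.15, 6.45 and 6.2 in LOC401312. It fell by 0.58 (SE 0.10, adjusted p = 0.0061). As for the genes above the shift, groups apart were a condition of its choice. BTBD11 (chr12:107318421-107659642) fell by 0.46 (SE 0.05, adjusted p = 0.000302), from 119.7, 122 and 116 CPM to 83.8, 84.9 and 91.0. NR4A1 (chr12:52022832-52059507), an orphan nuclear receptor of the immediate early response, had 20.2, 20.4 and 21.4 CPM against 15.9, 15.7 and 16.1. It fell by 0.38 (SE 0.07, adjusted p = 0.01), and the call ended without vector replicate 3 (adjusted p = 0.0521).

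PLBD1 (chr12:14503661-14567883), a phospholipase B-like lysosomal protein, had 8.55, 7.88 and 6.89 CPM in vector and 4.75, 3.96 and 5.35 in LOC401312. It fell by 0.73 (SE 0.15, adjusted p = 0.0124), a call that was lost without LOC401312 replicate 1 or 2 (adjusted p up to 0.0606). GALNT9 (chr12:132196372-132329589), which starts O-linked glycans, had 6.18, 6.31 and 7.40 CPM against 4.45, 3.87 and 3.79. It fell by 0.71 (SE 0.14, adjusted p = 0.00999), a call that was lost without vector replicate 3 or LOC401312 replicate 2 or 3 (adjusted p up to 0.0635). ZNF385A fell by 0.43 (adjusted p = 0.00971; 0.0541 without LOC401312 replicate 2) and TESC, a calcium-binding protein, by 0.35 (adjusted p = 0.00566). THAP2 (-0.43, adjusted p = 0.133), AMDHD1 (-0.39, adjusted p = 0.108) and IGFBP6, an IGF-binding protein (-0.28, adjusted p = 0.0803), did not pass in the whole-table fit.

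Growth control genes on chromosome 12 mostly sat near the shift. Of 30, 7 rose, 1 fell and 22 did not pass, with a median of 0.101. Over all 646 genes 16.9% were called higher and 1.24% lower, and over all features 4.13% and 4.58%. The counts in this and the following lists stand beside these shares, and nothing is read from them about a function. Of the 6 fits with 1 library left out, DYRK2 lost its call in 6, HMGA2 and FRS2 in 5, ETV6 in 4, CDK17 in 3, RAP1B in 2 and MDM2 in 1, while GLI1, which fell, kept its call in all 6. DYRK2, FRS2, ETV6, CDK17 and RAP1B were named after their calls were seen. MDM2, the ubiquitin ligase of p53, had 94.5, 85.4 and 91.7 CPM in vector and 110.1, 108 and 106 in LOC401312, a rise of 0.25 (SE 0.05, adjusted p = 0.00964; 0.0523 without LOC401312 replicate 2). HMGA2, a chromatin architectural protein, rose by 0.48 (SE 0.13, adjusted p = 0.0428), and was not called when any 1 library other than vector replicate 1 was removed (adjusted p as high as 0.162) or by DESeq2 (adjusted p = 0.0783). CDK4 (0.10, SE 0.05), CDKN1B, an inhibitor of cyclin-dependent kinases (0.12, SE 0.06), and the phosphatase PTPN11 (0.15, SE 0.04) lay at the chromosome median and did not pass (adjusted p = 0.273, 0.245 and 0.0569).

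Of 14 genes in a broad list of glucose and central carbon metabolism, 3 rose and 11 did not pass (median 0.202). The list also takes in transporters such as SLC2A13 (0.43) and enzymes outside glycolysis, ACADS and ALDH2 among them. The glycolytic enzymes TPI1 (0.09), PFKM (-0.002) and ENO2 (-0.13), like GAPDH and LDHB below, lay under the chromosome median. GAPDH, the glycolytic enzyme with the highest mean FPKM of the 646 genes (1622), stood at 4272, 4580.1 and 4535 CPM in vector and 4959, 4819 and 4611 in LOC401312. Its groups did not overlap, yet its change of 0.10 (SE 0.04, adjusted p = 0.125) did not pass and lay close to the chromosome's own median of 0.117. LDHB, a lactate dehydrogenase subunit, was at 0.05 (SE 0.04). The genes that rose were ACADS, of fatty acid oxidation (0.48, SE 0.09), the aldehyde dehydrogenase ALDH2 (0.35, SE 0.04) and citrate synthase, CS (0.18, SE 0.04). CS was named after its call was seen, and lost it without vector replicate 3 or LOC401312 replicate 2 or 3 (adjusted p up to 0.0768).

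Of 5 redox genes 2 rose, ALDH2 and TXNRD1, the selenoprotein that reduces thioredoxin. TXNRD1 had 1784, 1819 and 1684 CPM in vector and 1947, 1977 and 1947 in LOC401312. It rose by 0.15 (SE 0.04, adjusted p = 0.0252) and lost its call without vector replicate 3 or any LOC401312 library (adjusted p up to 0.111). MGST1, a microsomal glutathione transferase, was at 0.05 (SE 0.04, adjusted p = 0.512). Of 14 solute carriers 3 rose, with a median of 0.191. These were SLC16A7, the mitochondrial phosphate carrier SLC25A3 (0.16, SE 0.04; adjusted p up to 0.0912 when vector replicate 3 or any LOC401312 library was left out) and the iron transporter SLC11A2 (0.22, SE 0.05). SLC11A2, named after its call was seen, lost it without vector replicate 2 or any LOC401312 library (adjusted p up to 0.0674). SLC38A2, an amino acid transporter, was at 0.07 (SE 0.04).

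Among 20 genes of the cytoskeleton, matrix and adhesion 7 rose and 13 did not pass (median 0.132). With the chromosome median removed 5 were called higher, as were 43 of all 646 chromosome 12 genes. The share over all features, 2.42%, is lowered by construction in that fit. ITGA5, the integrin subunit that binds fibronectin, had 97.6, 100.3 and 97.4 CPM in vector and 133, 131 and 128 in LOC401312, a rise of 0.41 (SE 0.04, adjusted p = 0.000234). The focal adhesion proteins PXN (0.35, SE 0.04) and TNS2 (0.34, SE 0.05) and the actin-binding coronin CORO1C (0.26, SE 0.04) also rose and kept their calls without any single library. The tetraspanins CD63 (0.23, SE 0.05) and TSPAN9 (0.37, SE 0.10) rose but lost their calls without vector replicate 3 or LOC401312 replicate 1 or 2, and TSPAN9 also without vector replicate 1 (adjusted p up to 0.0893 and 0.163). These 5 were named after their calls were seen. The tubulin TUBA1B, with near-identical copies, was at 0.03 (SE 0.04).

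The keratin and homeobox genes of the segment from 50 to 60 Mb had list medians below that of the chromosome, also in each scaling, filter on low values, tool and library left out for which the list medians were computed. Of 8 keratins 0 passed by edgeR (1 higher and 0 lower at an unadjusted p of 0.05, and 1 higher by DESeq2), with a median of 0.039. KRT18, with 3186, 3376 and 3338 CPM against 3403, 3365 and 3321, was at 0.03 (SE 0.03). KRT81, whose reads can be shared with KRT86 and other close paralogs, was at 0.12 (SE 0.06). Of 6 HOXC genes 0 passed (1 higher and 0 lower at an unadjusted p of 0.05, and 0 by DESeq2), with a median of 0.00758. HOXC8 stood at 0.50 (SE 0.18, adjusted p = 0.124; called without vector replicate 1), while HOXC6 was at -0.16 (SE 0.13) and HOXC9 at -0.02 (SE 0.13).

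Of 15 genes of inflammatory and interferon signalling 3 rose (median 0.144), all complement proteases or their relative on 12p. C1S had 249, 256 and 249.5 CPM in vector and 317, 315 and 310.0 in LOC401312, a rise of 0.32 (SE 0.04, adjusted p = 0.000482). C1RL rose by 0.32 (SE 0.05) and C1R by 0.21 (SE 0.05), both named after their calls were seen. C1R was not called when any library other than vector replicate 2 was removed (adjusted p as high as 0.127). The TNF receptor TNFRSF1A was at 0.10 (SE 0.04, adjusted p = 0.123). Of 12 genes of DNA replication and repair 3 rose (median 0.112). These were UNG, a uracil-DNA glycosylase, by 0.15, the helicase RECQL by 0.16 and POLE, the catalytic subunit of DNA polymerase epsilon, by 0.19, the last 2 named after their calls were seen. RECQL and POLE lost their calls without vector replicate 3 or any LOC401312 library, and RECQL also without vector replicate 2 (adjusted p up to 0.133 and 0.122). UNG was not called when any 1 of the 6 libraries was removed (adjusted p as high as 0.17). RFC5, a clamp loader subunit, was at -0.11 (SE 0.05, adjusted p = 0.218).

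Of 21 genes of ribosomal proteins and translation 2 rose and 19 did not pass, with a median of 0.0528, and 5 were called lower with the chromosome median removed, a fit in which 15.4% of all features were called lower. RPL41 (-0.11, SE 0.06) and RPL6 (-0.0027, SE 0.03) were among those 5. RPS26 rose by 0.29 (SE 0.06, adjusted p = 0.0178; up to 0.074 without vector replicate 3 or LOC401312 replicate 1 or 2). Ribosomal protein genes have many processed copies elsewhere, and their counts are uncertain. Of 9 respiratory chain genes 2 rose, ATP5F1B, a catalytic subunit of ATP synthase (0.19, SE 0.04, adjusted p = 0.025; up to 0.101 without vector replicate 3 or LOC401312 replicate 1 or 2), and SLC25A3. Of 32 chromatin and transcription regulators 5 rose and 1, NR4A1, fell, with a median of 0.124. Each of the 5 lost its call in 4 or 5 of the 6 fits with 1 library left out (KDM5A and ETV6 in 4, HMGA2, CNOT2 and EP400 in 5). KDM5A, ETV6, CNOT2 and EP400 were named after their calls were seen. FOXM1, a mitotic transcription factor, had 153, 161 and 161 CPM against 146, 151 and 154. Its change of -0.07 (SE 0.04, adjusted p = 0.343) did not pass.

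**Figure D5:**
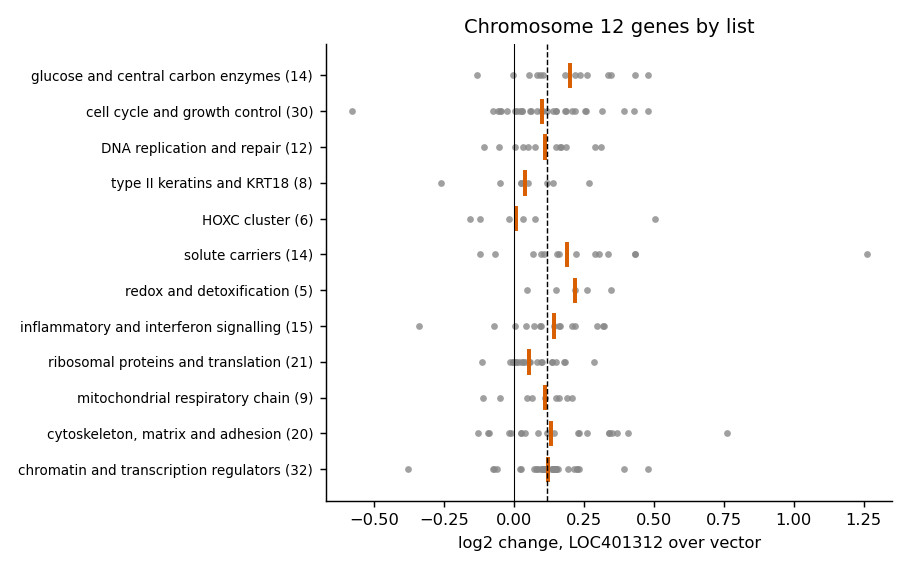
Log2 change of each chromosome 12 gene, LOC401312 over vector, in 12 lists, with the number of genes in brackets. Grey points are genes, orange bars list medians (0.00758 for HOXC to 0.219 for redox genes), and the dashed line is the chromosome 12 median of 0.117.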

How the data were processed

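The study sequenced A549 RNA, 3 libraries a group. The authors deposited whole-number counts, 1 column per library and not normalized, and FPKM (which the authors scaled by gene length and depth), per the file headers. The tools cutadapt 1.9 and FastQC and the build GRCh38 are named, per the submitters' processing notes; aligner, counter, annotation and strandedness were not given in the sources used here. Coordinates are those of the table.

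Counts were fitted over the whole table with edgeR 4.0.16 (R 4.3.3): TMM scaling, filterByExpr, quasi-likelihood test with no covariate, and Benjamini-Hochberg adjusted p over 19620 features, threshold 0.05. Standard errors are the log2 change over the square root of F. CPM use TMM-adjusted totals, and log2 CPM a prior count of 2. Alternatives used DESeq2 1.42.0 and limma 3.58.1 on log2(FPKM + 0.1) or log2(FPKM + 1). The fit was tested on simulated data. Replicates were checked for repeated deposits, and chi-square over its degrees of freedom was 13.68 to 22.86.

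Members, lists and settings were chosen with earlier results of these data known. Named were CDK4, MDM2, CDKN1B, GAPDH and TXNRD1 (1 other gene of the rule is not reported here); the 10 farthest above and below the shift whose groups did not overlap after its removal, leaving out clone, pseudogene, antisense and readthrough names; in each list the 2 with the highest FPKM and the 2 farthest from the shift; the highest FPKM per segment; and the rows beside the count minimum. Not all genes so named are described; others say so.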

Additional observations from a re-analysis of the deposited data

How the results depend on the processing

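All 14 segment medians stayed positive under every scaling, filter, tool and single library left out. The median change over chromosome 12, 12p and 12q was 0.141, 0.135 and 0.143 with total-count scaling, and 0.126, 0.120 and 0.127 with no low-count filter. With TMM factors from outside chromosomes 2, 9 and 12 it was 0.112 for the chromosome and 0.113 for 12q. With limma on log2(FPKM + 0.1) these medians were 0.237, 0.233 and 0.238 and the lowest segment 0.212, with 224 chromosome 12 genes called higher and 4 lower and 1599 and 308 of all features (with edgeR, all features called higher were 811 and all features called lower 899). With FPKM + 1 they were 0.198, 0.205, 0.193 and 0.175, with 221 and 4, and 1584 and 303. Over all features the median was then 0.117 and 0.072. DESeq2 called 178 chromosome 12 genes higher and 1246 features higher, and with no filter 577 features were lower. Count minimums of 100 and 1000 gave 0.121 (12q 0.124) and 0.114, the latter with 4 genes called lower, and 5 Mb segments a lowest median of 0.036. Removing the chromosome 12 median left 43 genes higher and 38 lower. Without LOC401312 replicates 2 and 3 the 12p median was 0.120, the lowest segment 0.050, and 6 and 1 chromosome 12 genes and 84 and 91 features were called, with 1 library in that group.

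Leaving out 1 library at a time gave medians of 0.116 to 0.124 (12p 0.103 to 0.124, 12q 0.115 to 0.128), a lowest segment of 0.081 to 0.087, 46 to 134 genes called higher and 4 to 18 lower, with all features called higher from 393 to 963 and all features called lower from 439 to 1042. The highest counts came without vector replicate 1, with its blood transcripts, and the lowest without LOC401312 replicate 2. Same-numbered libraries did not deviate together (correlations -0.068, -0.005 and -0.023, against -0.05 to 0.073 between libraries of unlike number). These correlations cannot show whether same-numbered libraries were prepared together, and the main fit assumed no pairing. With the replicate block 59 chromosome 12 genes were called higher, and 509 and 579 of all features. For the 71 genes named by rule, 89 calls were lost and 60 gained over all settings, 1056 were unchanged and 0 reversed.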

Other observations

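Some of the genes farthest above the shift lie side by side, a pattern noticed after the values were seen. SLC6A15 (chr12:84859491-84912825), the transporter left out by the rule, was counted 1091, 795 and 909 times in vector libraries and 3512, 3648 and 3753 times with LOC401312, a log2 change of 1.9 (SE 0.07). ALX1 and RASSF9 are the next 2 genes of the set along the chromosome. AMIGO2 (chr12:47075707-47079865), an adhesion protein of neurons, overlaps PCED1B on the other strand and rose by 0.57. Its vector libraries held 15240, 12358 and 13261 counts, and those of LOC401312 held 22222, 20526 and 21144. Reads of AMIGO2 and PCED1B could not be told apart by strand.

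The readthrough entry POC1B-GALNT4 was counted 418, 1038 and 100 times in vector libraries and 17, 27 and 63 times with LOC401312, while GALNT4 had 1275, 221 and 967 and 1398, 1518 and 1458. Vector replicate 2 was thus highest in the first and lowest in the second. POC1B itself was at -0.05.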
